A study of Homo sapiens with 12 samples.

Results

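The genes described are 10 that carry glucose into the cell and turn it into lactate: the transporter genes SLC2A1 and SLC2A3 and the enzyme genes HK1, HK2, PFKP, PFKL, PGK1, ENO1, LDHA and LDHB. They were taken by symbol from a table of 63129 gene IDs, and a symbol with several rows was represented by its row on a primary chromosome with the highest mean. Only PGK1 had a further row, which was listed at 0 in every library. All 10 passed the filter on low values and are among the 18731 genes tested.

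RNA was sequenced from KARPAS-422, Pfeiffer and RL, 3 established human cell lines from diffuse large B cell lymphomas of the germinal centre type. Each line carries an activating change in the SET domain of EZH2, the enzyme of the repressive PRC2 complex that methylates histone H3, so no group has unaltered EZH2. KARPAS-422 cells received 0.1% DMSO (n = 3) or the EZH2 inhibitor CPI-169 (n = 3), Pfeiffer cells received 0.1% DMSO (n = 2) or the EZH2 inhibitor GSK343 (n = 2), and RL cells received 0.1% DMSO only (n = 2). Both inhibitors were used at 1.5 µM and all cells were collected at 4 days. RL is labelled as phenotypically unresponsive to EZH2 inhibition and the other two lines as responsive. Each line is an established culture and not primary tissue, and each inhibitor was given to a different line, so line and compound cannot be told apart.

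Glucose enters most cells through facilitative carriers of the SLC2A family and is trapped by hexokinase as glucose 6-phosphate. Phosphofructokinase commits the sugar to glycolysis, the later enzymes harvest ATP and pyruvate, and lactate dehydrogenase converts pyruvate to lactate while restoring NAD+. Proliferating lymphocytes and many lymphomas are known for a high flux to lactate even where oxygen is plentiful, and several genes of the pathway are classical targets of the transcription factors MYC and HIF-1.

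Values are FPKM, fragments per kilobase of transcript per mapped fragments of the library, so levels of different genes can be compared per length. Their sums per library ran from 369524 to 628281 and were highest in Pfeiffer DMSO, and the absolute read depth is unknown. Pearson's r between replicates over the tested genes was 0.993 to 0.997, except for the 2 GSK343 libraries, where it was 0.970. These differed by 0.497 in root mean square log2 value, against 0.164 to 0.245 for the other replicate pairs. All 7 B cell markers and all 3 germinal centre markers reached 1 FPKM in at least 1 library. All 7 B cell markers did so in both RL libraries and in GSK343 replicate 2, and 6 of them in each other library. CD79A, which encodes a chain of the B cell receptor, was at 11.1 to 17.6 FPKM in Pfeiffer and at 329.8 to 543.4 in the other lines. CD79B, for its partner chain, was at 1317 to 1563 FPKM in Pfeiffer and 364 to 567 elsewhere, and MS4A1, which encodes CD20, at 588 to 993 and 138 to 329. Of the 5 myeloid and 3 erythroid markers none reached 1 FPKM, with S100A8 and HBB at 0 throughout. The T and NK cell list had 4 of 6 members at 1 FPKM or more in at least 1 library. Each CPI-169 library had 3 such members and each Pfeiffer library 0. The summed level of the list was 0.589 to 59.9 FPKM, mostly CD3G in KARPAS-422 (34.7 ± 0.683 with DMSO and 51.6 ± 3.24 with CPI-169, SD, n = 3 each). The epithelial and stromal list summed to 0.0837 to 139 FPKM, mostly EPCAM in Pfeiffer, which was at 134 and 135 FPKM with DMSO and at 49.8 and 66.7 with GSK343. Of the same list, KRT18 (0.50) and COL1A1 (0.89) were called higher with GSK343 on the log2(FPKM + 1) scale. The part of CD3G, CD79A and EPCAM in the results on these lines was not tested. Whether replicates were separate cultures is not in the labels, so a p-value here speaks only to library-to-library spread, possibly technical.

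With CPI-169 in KARPAS-422, 3 of the 10 genes were called higher and 2 lower. Transcripts of the transporter SLC2A1 and of both phosphofructokinase genes, PFKP and PFKL, rose, to between 1.23 times (SLC2A1) and, for PFKL, 31.8 ± 1.26 against 22.7 ± 1.05 FPKM (SD, n = 3 each). Transcripts of the transporter SLC2A3 and of the hexokinase HK1 fell, to 0.594 and 0.746 of the DMSO mean. That is 5 of 10 genes called by limma with Benjamini-Hochberg adjustment at a threshold of 0.05, beside 54.2% of all tested genes (26.9% called higher and 27.3% called lower). The share of the set called was thus near the background. The median log2 difference of the 10 genes was 0.21, beside 0.01 over all genes tested, and the libraries of the 2 groups did not overlap for 9 of the 10, beside 65.0% of all tested genes.

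With GSK343 in Pfeiffer the genes called, apart from PFKP, were others and lay further down the pathway. PFKP, PGK1, ENO1, LDHA and LDHB fell to between 0.510 and 0.756 of the DMSO mean, and no gene of the set was called higher. These are 5 of 10 genes called lower by limma with Benjamini-Hochberg adjustment, beside 17.5% of all tested genes called lower and 29.5% called in either direction (2254 of the 18731 were called higher). At an unadjusted p under 0.05, 1 gene was higher (PFKL) and 6 were lower. The median log2 difference was -0.35, beside -0.03 over all genes tested, and the groups did not overlap for 8 of the 10 genes, beside 57.8% of all. With the Pfeiffer libraries fitted alone, limma called 0 of the 10 genes and 0 of 18731 overall (4634 at an unadjusted p under 0.05), so the GSK343 calls rest on the spread shared by all 5 groups. In bulk RNA, less RNA per cell and fewer cells of a type cannot be told apart.

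**Figure D1:**
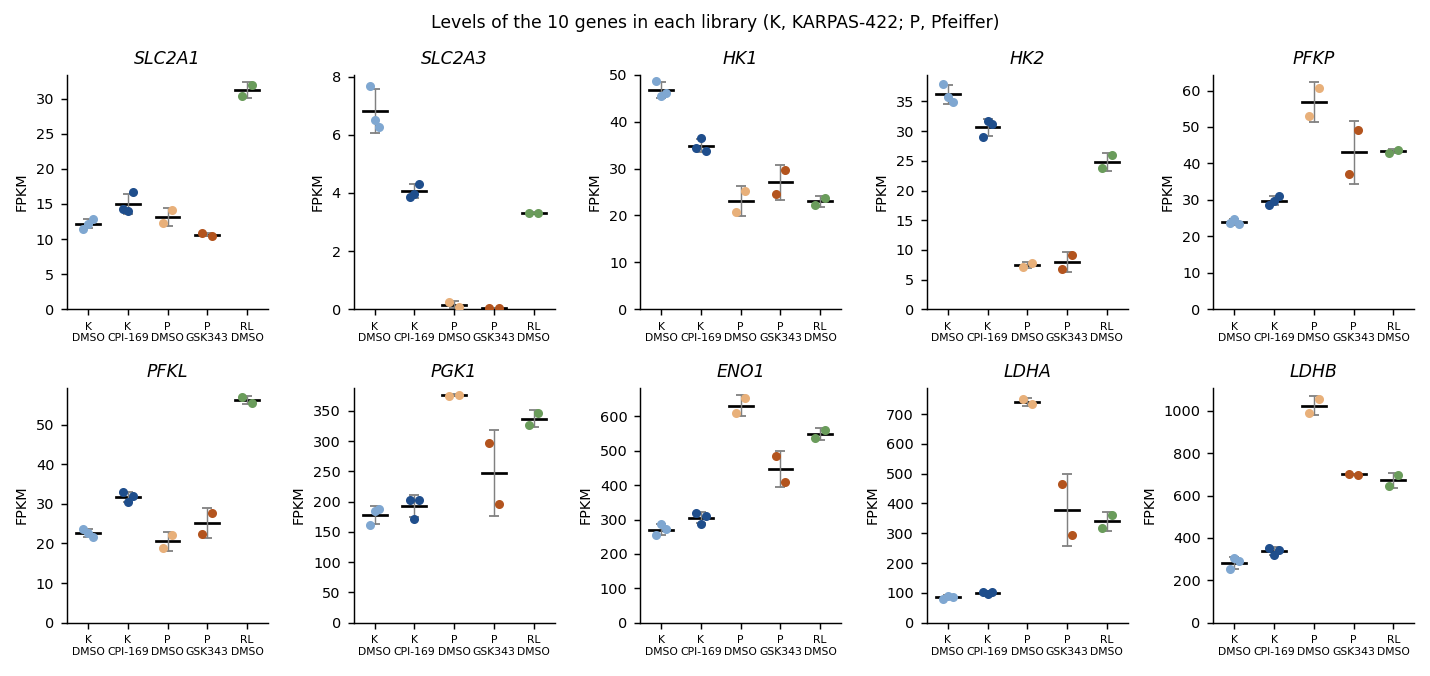
FPKM (linear vertical axes from 0, a separate scale for each gene) of the 10 genes in the 12 libraries, as points by group, with bars at the mean and whiskers of 1 SD. PGK1, ENO1, LDHA and LDHB were highest in the Pfeiffer DMSO libraries and lowest in KARPAS-422 DMSO, HK1 and HK2 were highest in KARPAS-422 DMSO, and SLC2A1 and PFKL were highest in RL.

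SLC2A1 (hg19, chromosome 1, 43391051 to 43424530), which encodes the widespread carrier GLUT1, was at 11.5, 12.2 and 12.9 FPKM in the KARPAS-422 DMSO libraries and at 14.2, 14.0 and 16.7 with CPI-169. All CPI-169 libraries lay above all DMSO libraries. The difference was 0.27 on the log2(FPKM + 1) scale used for every difference here (SE 0.0841, limma, Benjamini-Hochberg adjusted p = 0.0177). It no longer passed without DMSO replicate 1 (adjusted p = 0.0579) or without CPI-169 replicate 3 (0.0816), and ran from 0.00439 to 0.0816 over the 21 alternatives. In Pfeiffer SLC2A1 was at 12.3 and 14.1 FPKM in the DMSO libraries and at 10.8 and 10.4 in the GSK343 libraries, a difference of -0.29 that missed the threshold (limma, Benjamini-Hochberg adjusted p = 0.0603). RL had the highest levels, 30.4 and 32.0 FPKM, and the KARPAS-422 and Pfeiffer DMSO libraries overlapped.

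SLC2A3 (chromosome 12, 8071825 to 8088871) encodes GLUT3, a carrier of high glucose affinity. Its values in KARPAS-422 were 7.69, 6.49 and 6.27 FPKM with DMSO and 3.86, 3.98 and 4.32 with CPI-169. The groups stood apart, with a log2 difference of -0.63 (SE 0.0925, limma, Benjamini-Hochberg adjusted p = 2.01e-04), and the call held in all 21 alternatives. Pfeiffer nearly lacked the transcript, with 0.244 and 0.0782 FPKM in DMSO libraries and 0.0467 and 0.0424 in GSK343 libraries, so no fold change is given there. RL was between the lines, at 3.33 and 3.32 FPKM. The transcript has a near-identical gene copy, SLC2A14, which did not exceed 0.430 FPKM, and a pseudogene, SLC2A3P1, at 0.498 to 5.56 FPKM. How reads shared with such copies were divided is not given in the sources used here.

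HK1 (chromosome 10, 71029739 to 71161638) encodes the broadly expressed hexokinase that docks on mitochondria. In KARPAS-422 it was at 48.6, 45.5 and 46.1 FPKM with DMSO and at 34.3, 36.4 and 33.8 with CPI-169. That fall of 0.41 on the log2 scale (SE 0.0912, limma, Benjamini-Hochberg adjusted p = 0.00282) was called in all 21 alternatives. In Pfeiffer HK1 was at 20.8 and 25.3 FPKM without GSK343 and at 24.5 and 29.7 with it, and the groups overlapped (log2 difference 0.22, limma, Benjamini-Hochberg adjusted p = 0.157). RL, at 22.2 and 23.8 FPKM, lay within the range of Pfeiffer DMSO.

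HK2 (chromosome 2, 75061107 to 75120486), the inducible hexokinase gene of many tumours, was at 38.0, 35.8 and 34.9 FPKM in KARPAS-422 with DMSO and at 29.0, 31.7 and 31.3 with CPI-169. The groups did not overlap, and the log2 difference of -0.23 missed the threshold (SE 0.0960, limma, Benjamini-Hochberg adjusted p = 0.0616). It passed with both GSK343 libraries left out of the fit (adjusted p = 0.00708), an alternative chosen after seeing the data, and with the KARPAS-422 libraries fitted alone (0.0109), and ran from 0.00708 to 0.379 over the 21 alternatives. Pfeiffer had the lowest HK2, at 7.16 and 7.83 FPKM without GSK343 and 6.83 and 9.16 with it, and the GSK343 libraries enclosed the DMSO ones. RL was at 23.8 and 25.9 FPKM. A pseudogene, HK2P1, ran from 2.19 to 10.6 FPKM.

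PFKP (chromosome 10, 3109711 to 3179904), the platelet-type phosphofructokinase gene, was the one gene of the set called with both inhibitors, and in opposite directions. In KARPAS-422 it was at 23.6, 24.7 and 23.5 FPKM with DMSO and at 28.6, 29.6 and 31.1 with CPI-169. The rise of 0.30 (SE 0.0984, limma, Benjamini-Hochberg adjusted p = 0.0230) no longer passed when DMSO replicate 1 or 3 or CPI-169 replicate 2 or 3 was left out (0.0522 to 0.0803), with no filter on low values (just above 0.05) or with an equal FPKM sum per library (0.0621), of a range from 0.00124 to 0.0803 over the 21 alternatives. In Pfeiffer the values were 53.0 and 60.8 FPKM with DMSO and 37.0 and 49.1 with GSK343. That fall of 0.41 (SE 0.121, limma, Benjamini-Hochberg adjusted p = 0.0285) did not pass without DMSO replicate 2 (-0.31) or GSK343 replicate 1 (-0.21). Nor did it pass with Pfeiffer fitted alone (adjusted p = 0.262), with no filter (0.0559), with an equal FPKM sum (0.272) or after quantile normalization (0.313). The adjusted p ranged from 8.48e-04 to 0.313 over the 20 alternatives. RL was at 42.9 and 43.8 FPKM, inside the range of the GSK343 libraries.

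PFKL (chromosome 21, 45719933 to 45747259), the liver-type phosphofructokinase gene, gave the largest called rise among the 10 genes with CPI-169. The DMSO libraries of KARPAS-422 were at 23.7, 22.8 and 21.6 FPKM and the CPI-169 libraries at 32.9, 30.4 and 32.0. The log2 difference was 0.47 (SE 0.0904, limma, Benjamini-Hochberg adjusted p = 0.00118), called in all 21 alternatives. In Pfeiffer it was at 18.9 and 22.2 FPKM with DMSO and at 22.4 and 27.8 with GSK343, which did not pass (log2 difference 0.27, limma, Benjamini-Hochberg adjusted p = 0.0867). PFKL was called higher in Pfeiffer in 4 of 20 alternatives, among them median scaling (limma, Benjamini-Hochberg adjusted p = 0.0374), and its adjusted p ran up to 0.435. Another of the 4 was the fit without GSK343 replicate 1, which left 1 treated library (log2 difference 0.43). RL had more than either line, at 57.1 and 55.5 FPKM.

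PGK1, ENO1, LDHA and LDHB act in the later steps and were the abundant genes of the set. Because they were the genes that fell in Pfeiffer, apart from PFKP, the sequence just upstream of their RefSeq start (GRCh38.p14, 250 bases, 5′ to 3′ on the gene's strand) is shown. Capitals mark CACGTG, the palindromic E-box of MYC-type factors, and ACGTG or its complement CACGT, the core of hypoxia response elements, which also lies within each CACGTG.
LDHA, chr11:18394313-18394562, plus strand: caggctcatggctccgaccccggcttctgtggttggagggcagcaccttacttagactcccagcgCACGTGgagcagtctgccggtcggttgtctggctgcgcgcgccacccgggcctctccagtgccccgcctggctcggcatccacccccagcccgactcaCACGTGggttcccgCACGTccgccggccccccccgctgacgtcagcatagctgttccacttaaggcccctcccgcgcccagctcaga
PGK1, chrX:78103998-78104247, plus strand: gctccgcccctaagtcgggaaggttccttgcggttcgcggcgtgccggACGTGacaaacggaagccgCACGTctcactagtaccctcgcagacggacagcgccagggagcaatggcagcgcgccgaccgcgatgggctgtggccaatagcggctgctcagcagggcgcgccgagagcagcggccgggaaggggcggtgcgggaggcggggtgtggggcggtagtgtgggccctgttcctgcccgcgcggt
ENO1, chr1:8878687-8878936, minus strand: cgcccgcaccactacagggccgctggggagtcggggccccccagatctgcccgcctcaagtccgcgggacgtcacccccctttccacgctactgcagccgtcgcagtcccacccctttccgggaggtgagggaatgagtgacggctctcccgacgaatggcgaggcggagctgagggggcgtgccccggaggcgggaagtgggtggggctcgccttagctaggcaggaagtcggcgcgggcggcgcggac
LDHB, chr12:21657843-21658092, minus strand: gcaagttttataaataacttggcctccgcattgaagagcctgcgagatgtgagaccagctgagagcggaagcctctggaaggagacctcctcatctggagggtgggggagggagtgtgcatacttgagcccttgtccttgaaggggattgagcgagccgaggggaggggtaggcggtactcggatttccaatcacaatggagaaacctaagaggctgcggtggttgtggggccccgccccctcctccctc
In the windows shown, LDHA held 2 CACGTG and 1 further CACGT, and PGK1 held 1 ACGTG and 1 CACGT. ENO1 and LDHB had no match in theirs. Another listed LDHA start, with the window chr11:18396101-18396350, is not shown and had no match. Over both strands, 6.34% of the 35116 RefSeq windows of this length held CACGTG and 18.5% held ACGTG or CACGT. The table has 20 windows for 9 of the 10 genes, with no entry for SLC2A3. CACGTG occurred in 2 of the 20, 1 of LDHA and 1 of HK2, and the core in 5, of LDHA, PGK1, HK2 (2 windows) and PFKP. A match is a description of letters and not of a bound site.

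PGK1 (hg19, chromosome X, 77320684 to 77384793) encodes phosphoglycerate kinase, the first enzyme of the pathway to return ATP. In KARPAS-422 it was at 160.4, 185 and 188 FPKM with DMSO and at 203, 171 and 203 with CPI-169, and the groups overlapped (log2 difference 0.11, limma, Benjamini-Hochberg adjusted p = 0.560). In Pfeiffer the DMSO libraries were close together at 374 and 377 FPKM and the GSK343 libraries far apart at 297 and 197. The fall was 0.63 on the log2 scale (SE 0.176, limma, Benjamini-Hochberg adjusted p = 0.0215). It did not pass without DMSO replicate 1 (0.0948), DMSO replicate 2 (0.0880) or GSK343 replicate 2 (0.0930), with no filter on low values (0.0524) or with Pfeiffer fitted alone (0.214), the range being 5.63e-04 to 0.214 over the 20 alternatives, and without GSK343 replicate 2 the difference was -0.34. RL was at 327 and 347 FPKM. A pseudogene, PGK1P2, ran from 6.41 to 28.5 FPKM.

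ENO1 (chromosome 1, 8921060 to 8939308) encodes the main enolase, which makes phosphoenolpyruvate. KARPAS-422 had 253, 287 and 272 FPKM with DMSO and 318, 288 and 309 with CPI-169, groups that just failed to overlap and did not pass (log2 difference 0.17, limma, Benjamini-Hochberg adjusted p = 0.180). Pfeiffer had 609 and 654 FPKM without GSK343 and 484 and 409 with it, and both treated libraries were below both controls. The fall was 0.50 (SE 0.124, limma, Benjamini-Hochberg adjusted p = 0.0122). It did not pass without DMSO replicate 2 (-0.45), with Pfeiffer fitted alone (adjusted p = 0.198) or after quantile normalization (-0.21, adjusted p = 0.115). The adjusted p ran from 0.00269 to 0.198 over the 20 alternatives. RL was at 536 and 561 FPKM. A processed copy, ENO1P1, was at 58.9 to 134 FPKM.

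LDHA (chromosome 11, 18415934 to 18429972) encodes the lactate dehydrogenase subunit associated with lactate production. On the log2(FPKM + 1) scale it changed most among the 10 genes with GSK343 and differed most between KARPAS-422 and Pfeiffer DMSO libraries. Pfeiffer DMSO libraries were at 751 and 733 FPKM and the GSK343 libraries at 464 and 292. The log2 difference was -1.01 (SE 0.181, limma, Benjamini-Hochberg adjusted p = 0.00225), called in 19 of 20 alternatives, the exception being the fit of Pfeiffer alone. Against the DMSO mean, GSK343 replicate 1 was at -0.67 and replicate 2 at -1.34. In KARPAS-422 LDHA was at 77.5, 90.4 and 86.2 FPKM with DMSO and at 103, 95.8 and 104 with CPI-169. The groups did not overlap, and the log2 difference of 0.25 missed the threshold (limma, Benjamini-Hochberg adjusted p = 0.180). It passed in 5 of 21 alternatives, among them KARPAS-422 fitted alone (0.0258) and quantile normalization (0.00320). Leaving out both GSK343 libraries (0.0192), an alternative chosen after seeing the data, was another. The adjusted p ran from 0.00320 to 0.377 over the 21 alternatives. RL was at 318 and 362 FPKM. Among the pseudogenes LDHAP4 ran from 12.8 to 111 FPKM and LDHAP5 from 4.26 to 66.9.

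LDHB (chromosome 12, 21788275 to 21910791) encodes the lactate dehydrogenase subunit associated with lactate use, and it had the highest mean FPKM of the set in each of the 5 groups. In KARPAS-422 DMSO its range overlapped that of ENO1. KARPAS-422 had 252, 305 and 290 FPKM with DMSO and 354, 319 and 342 with CPI-169. The log2 difference of 0.26 fell just short of a call (SE 0.105, limma, Benjamini-Hochberg adjusted p = 0.0548) and passed in 6 of 21 alternatives, among them both fits without a GSK343 library (0.0380 and 0.0385, of a range from 0.0135 to 0.465). Pfeiffer had 992 and 1056 FPKM with DMSO and 702 and 698 with GSK343. That fall of 0.55 (SE 0.129, limma, Benjamini-Hochberg adjusted p = 0.00993) was similar in both treated libraries, at -0.54 and -0.55 against the DMSO mean. It did not pass without DMSO replicate 2 (-0.50) or with Pfeiffer fitted alone (adjusted p = 0.189, of a range from 0.00384 to 0.189). Over the 20 alternatives the difference ran from -0.59 to -0.29. RL was at 648 and 697 FPKM. A pseudogene, LDHBP2, ran from 16.1 to 114 FPKM.

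The difference between the responses was itself tested, since a call in one line and not in the other does not show that the responses differ. By limma with Benjamini-Hochberg adjustment, 8 of the 10 genes were called, beside 42.6% of all tested genes (23.8% higher and 18.8% lower). The response in KARPAS-422 was higher than in Pfeiffer for SLC2A1, PFKP, PGK1, ENO1, LDHA and LDHB, with differences of 0.56 to 1.26, and lower for HK1 and SLC2A3. After quantile normalization the ENO1 difference was 0.14 and not called (adjusted p = 0.364). LDHA had the largest, 1.26 (SE 0.233, limma, Benjamini-Hochberg adjusted p = 0.00171). The SLC2A3 value of -0.48 compares a fall from about 7 FPKM with a change near 0 FPKM, and it became 0.04 with a pseudocount of 0.1. HK2 (-0.30, limma, Benjamini-Hochberg adjusted p = 0.131) and PFKL (0.20, adjusted p = 0.295) were not called.

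**Figure D2:**
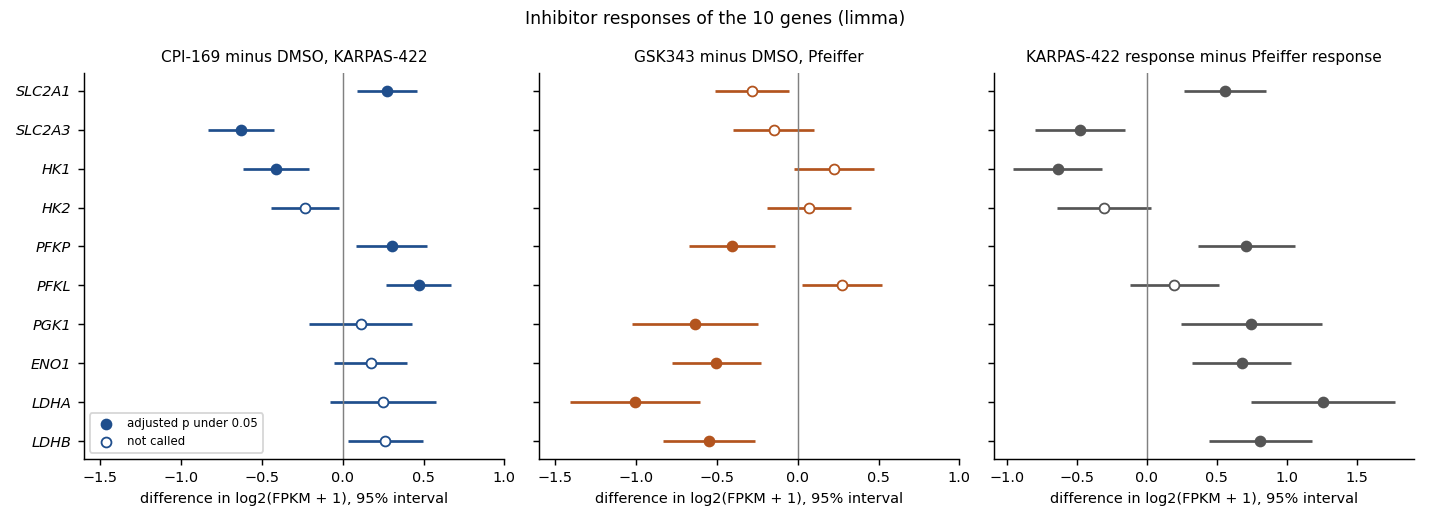
Differences in log2(FPKM + 1) for the 10 genes, with 95% limma intervals: CPI-169 minus DMSO in KARPAS-422, GSK343 minus DMSO in Pfeiffer, and the first minus the second, each panel with its own horizontal range where needed. Filled points passed an adjusted p of 0.05; PGK1, ENO1, LDHA and LDHB lie right of 0 and open in the first panel and left of 0 and filled in the middle one.

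The lines also differed without inhibitor. RL against KARPAS-422 gave a call for all 10, 7 higher (SLC2A1, PFKP, PFKL, PGK1, ENO1, LDHA and LDHB) and 3 lower (SLC2A3, HK1 and HK2), by limma with Benjamini-Hochberg adjustment and beside 66.8% of all tested genes (33.6% higher and 33.2% lower). The log2 differences ran from 0.83 for PFKP to 1.99 for LDHA among the higher genes, and from -0.52 for HK2 to -0.99 for HK1 among the lower. All of these calls held in all 20 alternatives, 200 values in all.

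KARPAS-422 against Pfeiffer gave 3 genes higher (SLC2A3 2.75, HK2 2.13 and HK1 0.99) and 5 lower (LDHA -3.12, LDHB -1.86, ENO1 -1.22, PFKP -1.21 and PGK1 -1.08) by limma with Benjamini-Hochberg adjustment, beside 83.0% of all tested genes (39.8% higher and 43.2% lower). LDHA averaged 84.7 ± 6.54 FPKM in KARPAS-422 (SD, n = 3) and 742 ± 12.8 in Pfeiffer (SD, n = 2). Direction here depended on scaling for ENO1, which was at 0.10 after quantile normalization, and for SLC2A1. SLC2A1 was at -0.10 as deposited, with no call, and was called lower after quantile normalization (-0.21, limma, Benjamini-Hochberg adjusted p = 0.0465). It was called higher, at 0.49, when every library was scaled to an equal FPKM sum (limma, Benjamini-Hochberg adjusted p = 5.88e-04). That last scaling, chosen after seeing the data, moved the median over all tested genes from -0.06 to 0.41. The 0.49 of SLC2A1 lay close to that shift. SLC2A3, HK1, HK2, PFKP, LDHA and LDHB kept their direction and call under each scaling, with LDHB at -0.39 after quantile normalization. PGK1 lost its call there (-0.21, limma, Benjamini-Hochberg adjusted p = 0.0592), and PFKL gained one with an equal FPKM sum (0.75).

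RL against Pfeiffer gave 4 genes higher (SLC2A3 1.90, HK2 1.61, PFKL 1.42 and SLC2A1 1.19) and 3 lower (LDHA -1.13, LDHB -0.61 and PFKP -0.38) by limma with Benjamini-Hochberg adjustment, beside 74.3% of all tested genes (35.6% higher and 38.7% lower). The 4 higher genes and LDHA kept their direction and call under each scaling. The PFKP call did not hold without Pfeiffer DMSO replicate 2 (-0.29) or RL replicate 1 (-0.37). Quantile normalization turned LDHB to 0.45, PGK1 to 0.45 and ENO1 to 0.69, all called higher. An equal FPKM sum turned ENO1 to 0.23, called higher (limma, Benjamini-Hochberg adjusted p = 0.0288), and PFKP to 0.04 and PGK1 to 0.28, neither called. That scaling moved the median of all genes from -0.03 to 0.26. LDHB was then at -0.17 and not called (limma, Benjamini-Hochberg adjusted p = 0.120). HK1 was not called as deposited (0.00, limma, Benjamini-Hochberg adjusted p = 0.986, 95% interval -0.25 to 0.25) and was called higher in RL with an equal FPKM sum (0.42, adjusted p = 0.0296).

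**Figure D3:**
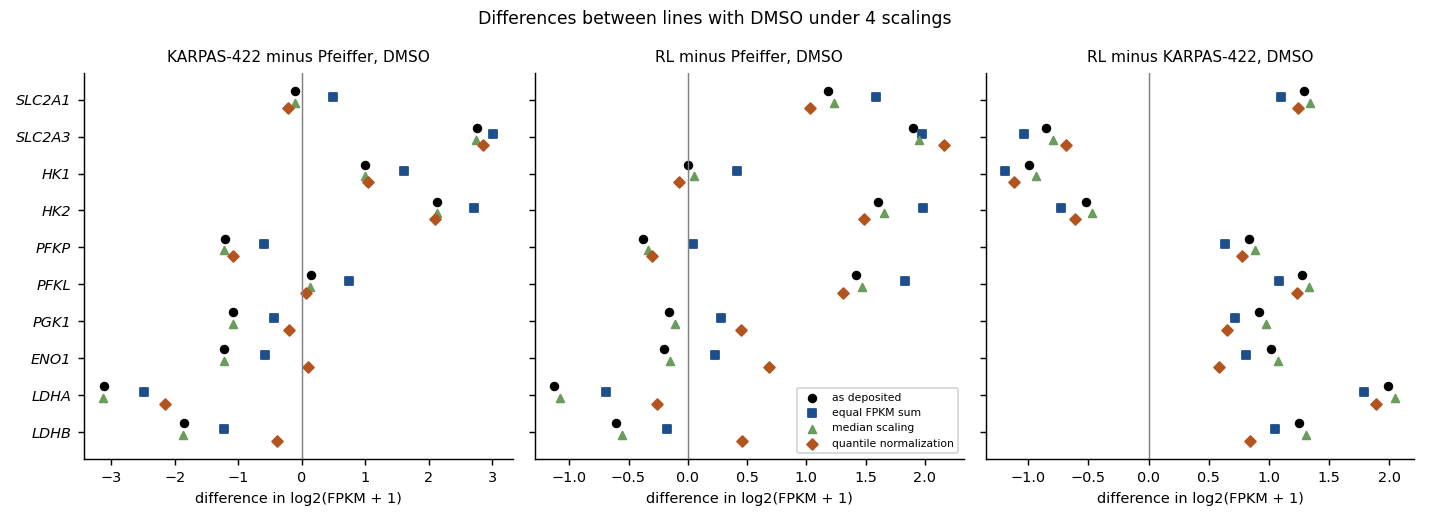
Differences in log2(FPKM + 1) between DMSO groups for the 10 genes, as deposited and under 3 other scalings, each panel with its own horizontal range. In the panel of RL minus KARPAS-422 the 4 scalings lie on the same side of 0 for every gene, whereas ENO1 and SLC2A1 cross 0 in KARPAS-422 minus Pfeiffer and HK1, PFKP, PGK1, ENO1 and LDHB cross it in RL minus Pfeiffer.

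Within a library, ratios of paired genes do not depend on a scaling factor of that library. SLC2A1 made up 64.1% ± 3.78 of the summed FPKM of SLC2A1 and SLC2A3 in KARPAS-422 with DMSO and 78.7% ± 0.775 with CPI-169 (SD, n = 3 each), and 98.8% ± 0.986 in Pfeiffer and 90.4% ± 0.325 in RL with DMSO (SD, n = 2 each). HK2 was 43.6% ± 0.508 of the hexokinase pair in KARPAS-422 DMSO and 46.8% ± 1.15 with CPI-169, 24.6% ± 1.36 in Pfeiffer DMSO and 51.9% ± 0.256 in RL. Each of these CPI-169 shares lay outside the range of its DMSO group.

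PFKP was 51.4% ± 1.24 of the PFKP and PFKL sum in KARPAS-422 DMSO and 48.4% ± 1.63 with CPI-169. In Pfeiffer it was 73.8% and 73.3% with DMSO and 62.3% and 63.8% with GSK343, a drop of 10.5 points with no overlap. The LDHA share of the lactate dehydrogenase pair was 22.8% to 23.5% in KARPAS-422 DMSO libraries and 22.5% to 23.3% with CPI-169, groups that overlapped. In Pfeiffer it was 43.1% and 41.0% with DMSO and 39.8% and 29.5% with GSK343, so that GSK343 replicate 2 alone stood far below. A two-sided exact permutation test over libraries cannot go below p = 0.1 for 3 against 3 or p = 0.333 for 2 against 2. It gave that smallest value for the transporter, hexokinase and phosphofructokinase pairs with CPI-169 (exact p = 0.1) and for all 4 pairs with GSK343 (exact p = 0.333), and an exact p of 0.7 for LDHA with CPI-169.

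**Figure D4:**
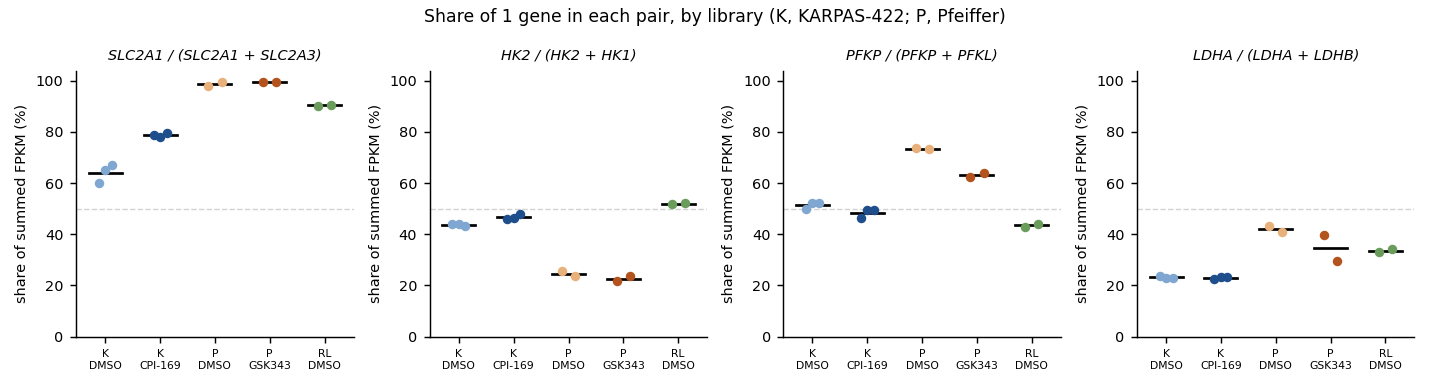
Share of 1 gene in the summed FPKM of its pair, in percent, for each library, with bars at group means and a dashed line at equal shares. The SLC2A1 share rises from 64.1% to 78.7% with CPI-169, and the PFKP share falls from 73.5% to 63.0% with GSK343.

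Other genes of the pathway were read from lists. Among 6 tested SLC2A family genes outside the set, not all of them for glucose carriers, CPI-169 in KARPAS-422 gave 5 higher and 1 lower. The median was 0.64, and 54.2% of all tested genes were called (26.9% higher). Of the 5, SLC2A12 (at most 0.280 FPKM) and SLC2A13 (at most 0.641) stayed below 1 FPKM in KARPAS-422. SLC2A5, the fructose carrier, went from 0.148 ± 0.121 to 2.19 ± 0.181 FPKM (SD, n = 3 each), and SLC2A6 from 4.15 ± 0.695 to 11.4 ± 0.491. GSK343 in Pfeiffer gave 3 higher and 0 lower of the same 6 (SLC2A6 0.71, SLC2A13 0.57 and SLC2A11 0.88), beside 29.5% of all tested genes called. SLC2A13 reached 1 FPKM only in the GSK343 libraries (1.80 and 1.19, against 0.715 and 0.626 in Pfeiffer DMSO). It passed the filter through those libraries alone, so its call and its place in this count are not evidence.

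Of 15 other glycolytic enzyme genes tested, CPI-169 gave 8 higher, 2 lower and 5 not called (median 0.35), by limma with Benjamini-Hochberg adjustment and beside 54.2% of all tested genes called. The brain-type aldolase gene ALDOC rose from 5.87 ± 0.494 to 16.2 ± 0.924 FPKM (log2 difference 1.32), and GPI, for the isomerase after hexokinase, from 25.8 ± 0.815 to 45.3 ± 1.08 (0.79, SD, n = 3 each). BPGM, whose product makes 2,3-bisphosphoglycerate, fell (-0.72). GSK343 gave 1 higher, 4 lower and 10 not called (median -0.20), and 5 of 15 is near the 29.5% of all tested genes called. The neuronal enolase gene ENO2 went from 28.1 and 29.3 FPKM to 12.5 and 14.2 (-1.05), the testis-type lactate dehydrogenase gene LDHC from 8.07 and 9.93 to 5.05 and 5.16 (-0.71), and the mutase gene PGAM1 fell by 0.32. GAPDH (-0.45) was the remaining lower gene and LDHD (0.51) the higher one, both named after their values were seen.

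**Figure D5:**
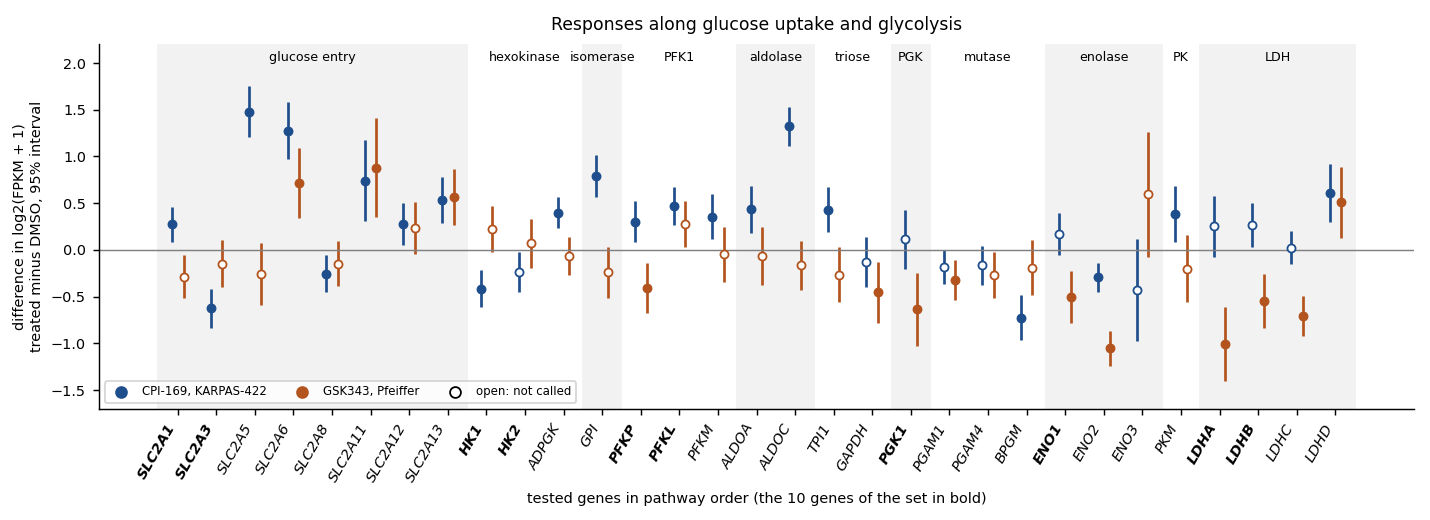
Differences in log2(FPKM + 1), treated minus DMSO, with 95% limma intervals, for every tested carrier and glycolytic enzyme gene in pathway order, the 10 genes of the set in bold; blue is CPI-169 in KARPAS-422, orange GSK343 in Pfeiffer, and open points were not called. The called blue points from GPI to the aldolases are above 0, and the called orange points from GAPDH to LDHC are below 0. Outside these stretches called points go both ways: SLC2A3, HK1 and BPGM are below 0 in blue, and SLC2A6, SLC2A11 and LDHD above 0 in orange.

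Lists around the pathway were counted in the same way, beside 54.2% of all tested genes called with CPI-169 and 29.5% with GSK343. Of 6 genes for the enzymes that make or remove fructose 2,6-bisphosphate or reverse phosphofructokinase, CPI-169 gave 2 higher and 2 lower. PFKFB4 rose by 1.31, while PFKFB3 (-0.82) and C12orf5, now named TIGAR (-0.90), fell. GSK343 gave 1 higher (PFKFB2, 0.56) and 2 lower (C12orf5 -0.51 and FBP1 -0.39). Of 8 lactate and pyruvate carrier genes, CPI-169 gave 1 higher and 5 lower, among them SLC16A7 (-1.14), the carrier chaperone BSG (-0.46) and MPC1 (-0.53). GSK343 gave 0 higher and 2 lower (BSG -0.45 and EMB -0.31), a share of the 8 near that of all genes.

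Pyruvate dehydrogenase and its control had 5 of 11 genes higher and 0 lower with CPI-169, led by the inhibitory kinase gene PDK3, which went from 0.986 ± 0.236 to 6.78 ± 0.308 FPKM (1.97, SD, n = 3 each), and 2 higher (PDK2 0.46 and PDP1 0.43) and 1 lower (DLAT -0.38) with GSK343. The share called was below the 54.2% of all tested genes with CPI-169 and near the 29.5% with GSK343. The pentose phosphate branch, which makes NADPH and ribose, had 4 of 8 genes higher and 1 lower with CPI-169, beside the same 54.2%. Transketolase, TKT, went from 86.2 ± 2.34 to 180.5 ± 7.19 FPKM (SD, n = 3 each). With GSK343 the branch had 1 higher (H6PD 0.75) and 3 lower, among them RPIA (-0.78) and TKT (-0.44), beside 29.5%. The response of TKT thus had opposite signs in the treated lines, 1.06 and -0.44.

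Of 9 regulators of glucose use, CPI-169 gave 1 higher and 4 lower, and GSK343 gave 2 higher and 1 lower, shares near the 54.2% and 29.5% of all tested genes called. MYC went from 102 ± 7.18 to 198 ± 5.95 FPKM with CPI-169 (0.96) and was not called with GSK343 (0.15, limma, Benjamini-Hochberg adjusted p = 0.548). HIF1A was at 160.0 ± 3.94 and 134 ± 3.59 FPKM in KARPAS-422 (-0.26, called lower) and at 25.0 and 26.1 with DMSO and 47.1 and 48.0 with GSK343 in Pfeiffer (0.87, called higher). TXNIP, whose product restrains glucose uptake, fell from 617 ± 35.1 to 257 ± 13.5 FPKM with CPI-169 and rose from 4.73 and 5.53 to 26.2 and 31.5 with GSK343.

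By Pearson's r of log2(FPKM + 1) over the 12 libraries, the genes most like PFKP among tested genes averaging at least 2 FPKM were CRTAP (0.989), RP11-760H22.2 (0.982) and DEPTOR (0.978). Within the set, the closest pairs were LDHA with LDHB (0.990) and SLC2A3 with HK2 (0.987), and the most opposed was HK1 with ENO1 (-0.939). These 12 libraries fall into 3 lines, so the values mainly describe the order of the lines.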

How the data were processed

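RNA of 12 libraries from 3 cell lines was analysed from a table of FPKM values that the authors deposited. The submitters' processing notes name TopHat 1.4.1, Cufflinks and hg19, with strand handling, annotation release and the Cufflinks version not given in the sources used here. Each FPKM divides by the total, so abundant transcripts in 1 library lower the others there, and antisense or overlapping genes are uncertain. The absolute depth is unknown, and a value of 0 can be a failed estimate. Sample titles gave the match of columns to samples. Missing values left out 77 gene IDs. The 5756 IDs off the primary chromosomes could not represent a listed symbol, but those that passed the filter stayed among the genes tested.

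Those genes that reached 1 FPKM in 2 or more libraries (18731) were transformed to log2(FPKM + 1), a scale that understates changes of low genes, and fitted over 5 groups with limma 3.58.1 under R 4.3.3 (trended prior, 7 residual degrees of freedom plus 3.45 from the prior, Benjamini-Hochberg adjustment over all tested genes, threshold 0.05). The 5 groups share 1 spread per gene. Isozyme shares used exact permutation tests (scipy 1.17.1). Alternatives were another pseudocount (0.1), no filter, a 5 FPKM filter, median scaling, quantile normalization, the groups of a comparison alone, a replicate block and leaving out each library; an equal FPKM sum and leaving out both GSK343 libraries were added after seeing the data. From each list the 3 tested genes with the smallest adjusted p per inhibitor were eligible to be named, with MYC, HIF1A and TXNIP, and the 3 genes most like any member called with both inhibitors. Not every eligible gene is reported here. The members and lists were chosen with earlier results of these data known. Promoter sequences are RefSeq's, with 9 of 10 genes matched by symbol.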

Additional observations from a re-analysis of the deposited data

Results flagged for a closer look

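For 8 of the 10 genes the response to CPI-169 in KARPAS-422 differed from the response to GSK343 in Pfeiffer by a test of the difference itself (limma with Benjamini-Hochberg adjustment over 18731 genes). The KARPAS-422 response exceeded the Pfeiffer response by 0.56 for SLC2A1, 0.71 for PFKP, 0.75 for PGK1, 0.68 for ENO1, 1.26 for LDHA and 0.81 for LDHB on the log2(FPKM + 1) scale. It was below it for HK1 (-0.64) and SLC2A3 (-0.48). Adjusted p ran from 0.00171 for LDHA to 0.0233 for SLC2A3. Such a call was made for 42.6% of all tested genes. The 2 estimates had opposite signs for SLC2A1, PFKP, HK1, PGK1, ENO1, LDHA and LDHB, but only PFKP was called with both inhibitors. For the other genes an opposite direction is thus not shown. After quantile normalization the ENO1 estimates had the same sign (-0.07 with CPI-169 and -0.21 with GSK343). PGK1 did not pass without CPI-169 replicate 1 or 3 or without either Pfeiffer DMSO library (adjusted p 0.0522 to 0.0662 with limma and Benjamini-Hochberg adjustment) or with no filter on low values (0.0575), and SLC2A3 did not pass without CPI-169 replicate 1 (0.0533) or Pfeiffer DMSO replicate 2 (0.101). ENO1 did not pass after quantile normalization, at 0.14 (adjusted p 0.364). Line, compound and library series cannot be told apart.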

How the results depend on the processing

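Of 1210 values of single genes under the alternatives, 1131 kept direction and side of the threshold, 37 lost a call, 28 gained one and 14 changed sign. The count of genes called higher with CPI-169 was 3, ran from 1 to 5 when a library was left out, and was 5 with both GSK343 libraries left out. For GSK343, 5 genes were lower: 3 with no filter, 3 after quantile normalization, 0 with Pfeiffer fitted alone, and 1 to 5 when a library was left out. Genes higher with GSK343 went from 0 to 1 with median scaling, 1 with quantile normalization, 1 with a replicate block, and 0 to 3 when a library was left out. In the difference between responses, 2 genes were lower, 1 with a pseudocount of 0.1 and 1 to 3 when a library was left out. RL against Pfeiffer went from 4 higher to 7 after quantile normalization and from 3 lower to 1 with an equal FPKM sum. KARPAS-422 against Pfeiffer went from 3 higher to 5 with an equal FPKM sum.

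These values changed sign: ENO1 with CPI-169 (-0.0693, quantile normalization), HK2 with GSK343 (-0.12 to 0.26 when a library was left out), and SLC2A3 in the difference between responses (0.0442, pseudocount 0.1). In RL against Pfeiffer they were HK1 (-0.0718 with quantile normalization, -0.13 without Pfeiffer DMSO replicate 1, -0.05 without RL replicate 2), PGK1 (0.45), ENO1 (0.69) and LDHB (0.45) with quantile normalization, and PFKP (0.0431), PGK1 (0.28) and ENO1 (0.23) with an equal FPKM sum. In KARPAS-422 against Pfeiffer they were ENO1 (0.10, quantile normalization) and SLC2A1 (0.49, equal FPKM sum). The LDHA share with CPI-169 went from -0.136 points to between -0.284 and 0.0830 when a library was left out (0.0797 without DMSO replicate 1). The cause was not tested.

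Over all genes, GSK343 gave 5535 calls, 0 with Pfeiffer alone (4634 at an unadjusted p under 0.05), 3003 and 3537 without Pfeiffer DMSO replicate 1 or 2, and 8681 without GSK343 replicate 1. The share of its calls that were higher was 40.7% as deposited and 51.0% and 57.0% with quantile normalization and an equal FPKM sum; for the difference between responses it was 55.9%, and 44.3% with median scaling; for RL and KARPAS-422 against Pfeiffer it was 47.9% each, and 61.7% and 62.6% with an equal FPKM sum. Deviations from the group mean of same-numbered KARPAS-422 libraries correlated at -0.15, -0.25 and 0.16. In Pfeiffer, which has only 2 pairs, same-numbered libraries were at 0.14 and the others at -0.14, equal in size by construction. Deviations within a group cancel, which ties such values together, so whether replicate numbers pair the samples was not settled. The replicate block added PFKL to the GSK343 calls (0.27, limma, Benjamini-Hochberg adjusted p = 0.0417). The absolute depth is unknown, so counting error of low values, such as SLC2A3 in Pfeiffer, cannot be given.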

Other observations

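Genes that respond to low oxygen in many cells but lie outside glycolysis were counted as a list, beside 54.2% of all tested genes called with CPI-169 and 29.5% with GSK343. Of 13 tested, CPI-169 in KARPAS-422 gave 4 higher and 5 lower (median 0.02), and GSK343 in Pfeiffer gave 2 higher and 3 lower (median -0.26), by limma with Benjamini-Hochberg adjustment. P4HA1, for a prolyl hydroxylase subunit of collagen maturation, fell with both inhibitors, from 31.0 ± 0.791 to 8.73 ± 0.595 FPKM in KARPAS-422 (SD, n = 3 each) and from 18.2 and 19.1 to 7.86 and 8.28 in Pfeiffer. Its paralogue P4HA2 rose from 0.0409 ± 0.0165 to 3.94 ± 0.0782 FPKM with CPI-169 (SD, n = 3 each). NDRG1 rose from 3.72 and 4.31 to 8.48 and 11.1 FPKM with GSK343, and the carbonic anhydrase gene CA9 fell from 1.07 and 1.20 to 0.0762 and 0.242. The histone demethylase gene KDM3A fell with CPI-169 (-0.92).

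Glycogen and gluconeogenesis genes gave 5 higher and 2 lower of 11 with CPI-169 and 2 higher and 2 lower with GSK343, beside the same 54.2% and 29.5%; 4 of 11 is near the latter. The glycogen synthase gene GYS1 went from 9.15 ± 0.416 to 22.0 ± 0.261 FPKM with CPI-169 and the phosphorylase gene PYGB from 46.5 ± 1.34 to 139 ± 2.32 (SD, n = 3 each). With GSK343 the branching enzyme gene GBE1 rose (0.59) and PGM2 (-0.49) and UGP2 (-0.38) fell. The summed FPKM of the 10 transporter and enzyme genes was 0.239% to 0.244% of the library total in KARPAS-422 with DMSO, 0.271% to 0.274% with CPI-169, 0.452% to 0.483% in Pfeiffer with DMSO, 0.348% and 0.328% with GSK343, and 0.441% to 0.467% in RL.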
